A study of Mus musculus with 6 samples.

Results

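The genes described here are 52 genes of mitosis and chromosome segregation, read in macrophages of old and young mice. They were taken by name from a list of genes that act in the last part of the cell cycle, without kinesins, and all 52 were found among the 19973 genes of the deposited table. For the account below they were divided by their roles into mitotic entry (8 genes), the chromosomal passenger complex (4), the kinetochore and spindle checkpoint (14), sister separation and anaphase (6), chromosome structure with condensin (6), the spindle (7), cytokinesis (5) and transcription factors (2).

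The cells came from the peritoneal cavity of male C57BL/6 mice, an inbred laboratory strain, aged 18 months (old) or 2 months (young). Every mouse had received 200 µg of zymosan A, a yeast cell wall preparation that starts a self-limiting inflammation, and cells were washed from the cavity after 72 hours. They were then kept overnight in medium with L-cell supernatant, which as background contains the macrophage growth factor M-CSF. Unattached cells were removed, and attached cells received vehicle (phosphate-buffered saline) for 6 hours. There were 3 old and 3 young libraries, all from the vehicle arm. The labels mention 3 mice per group as well as triplicate sequencing for each mouse, so it is not known whether a library stands for a mouse, and the p-values reflect only variation among libraries, part of which may be technical.

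As background, a cell enters mitosis when cyclin B and the kinase Cdk1 become active together, after which condensin compacts the chromosomes and kinetochores attach them to the spindle. A checkpoint holds the cell until every chromosome is attached. The anaphase-promoting complex then marks securin and the cyclins for destruction, the sister chromatids part, and cytokinesis divides the cell. Transcripts of most of these genes build up only as a cell approaches mitosis, under the MuvB complex with the factors B-Myb and FoxM1, so they are widely used as markers of dividing cells. Macrophages of the peritoneum can divide in place, and do so in the days after an inflammatory stimulus.

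Recovered read totals ran from 8163000 to 13008000 per library, and the totals of the ages overlapped. Old replicate 3 and young replicate 3 lay at opposite ends of the second principal component, which held 18.2% of the variance, while the first, with 71.5%, separated the ages. Old replicate 3 also had 1.34% of its reads on nuclear ribosomal RNA genes, against 0.0177% to 0.154% in the others. The 8 macrophage markers were abundant in every library, with summed normalized counts of 345257 to 430483 in old and 274834 to 349804 in young libraries, and 6 of them were higher in old. Markers of several other cell types were higher in old as well. All 9 B cell markers rose (summed 1428 to 3081 against 57.9 to 63.4), led by Ighm and Igkc. Of 6 tested mast cell markers 5 rose (564 to 639 against 50.3 to 76.9 over 8 markers), led by Tpsb2 and Cma1. The 10 T and NK cell markers, led by Lck and Klrb1c, summed to 61.0 to 102 against 7.61 to 13.2, and the 3 listed eosinophil markers, led by Il5ra and Ccr3, to 30.5 to 45.3 against 8.05 to 17.5. The eosinophil difference was mostly that of Il5ra (mean 26.4 against 1.55), while Ccr3 overlapped between the ages (mean 8.41 against 5.33). The 7 dendritic cell markers, led by Ccr7 and Zbtb46, summed to 35.6 to 57.4 against 16.9 to 22.8. That difference was mostly Ccr7 (mean 30.5 against 7.47), while Zbtb46 overlapped between the ages (mean 7.62 against 7.32). Of 10 neutrophil markers 4 were listed, and their sum of 511 to 655 against 186 to 238 was nearly all S100a8, while Cxcr2 was the next most abundant. The 8 listed stromal markers, led by Col1a2 and Col1a1, summed to 683 to 771 against 662 to 804. Of the 5 tested among them, 2 were called higher in old and 1, Col1a1 (log2 difference -0.66), lower. Of progenitor markers 4 of 8 were listed, led by Kit and Cd34 (82.6 to 91.5 against 25.1 to 35.5). Kit, which is also among the mast cell markers, made up most of the old sum (mean 63.1 against 10.1). Cd34 went the other way (mean 9.65 against 17.6) and was not called. Of erythroid markers 1 of 6 was listed, Hba-a1, at 0 in the old and at most 0.877 in the young libraries. The part of these other cells in the mitotic difference was not tested.

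Transcripts of 50 of the 52 mitotic genes were lower in old than in young macrophage cultures, and the fall was deep. Among all 11795 tested genes 17.6% were lower in old (limma on log2(normalized count + 1), Benjamini-Hochberg adjusted p under 0.05). The median log2 difference, old minus young, was -2.39 over the 52 genes and 0.00 over all tested genes. Among the 50, the ratio of young to old mean normalized counts ran from 2.51 for Smc2 to 13.9 for Plk1, with a median of 5.36. Each of the 50 had a log2 difference of -1 or lower, a depth that 4.89% of all tested genes reached with a call, and 36 had one of -2 or lower, reached by 1.61% of all. No member was called higher (0 in limma, edgeR and DESeq2), and 1, Pttg1, was higher at an unadjusted p under 0.05 in limma and in edgeR.

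In each of the 50 genes every old library lay below every young one, a separation that 23.6% of all tested genes showed in this direction. The lowest young library was at least 2 times the highest old library in all 50, a gap whose share over all tested genes was not counted. The 52 genes together took 0.112% to 0.116% of the reads in old libraries and 0.575% to 0.589% in young ones. All 52 passed the filter, a mean normalized count of 10 or more across both ages, and all 52 would also have passed it on the old libraries alone. The fewest reads of a member in any library were 11. Fewer dividing cells and less of these transcripts per dividing cell cannot be told apart in such bulk RNA.

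**Figure D1:**
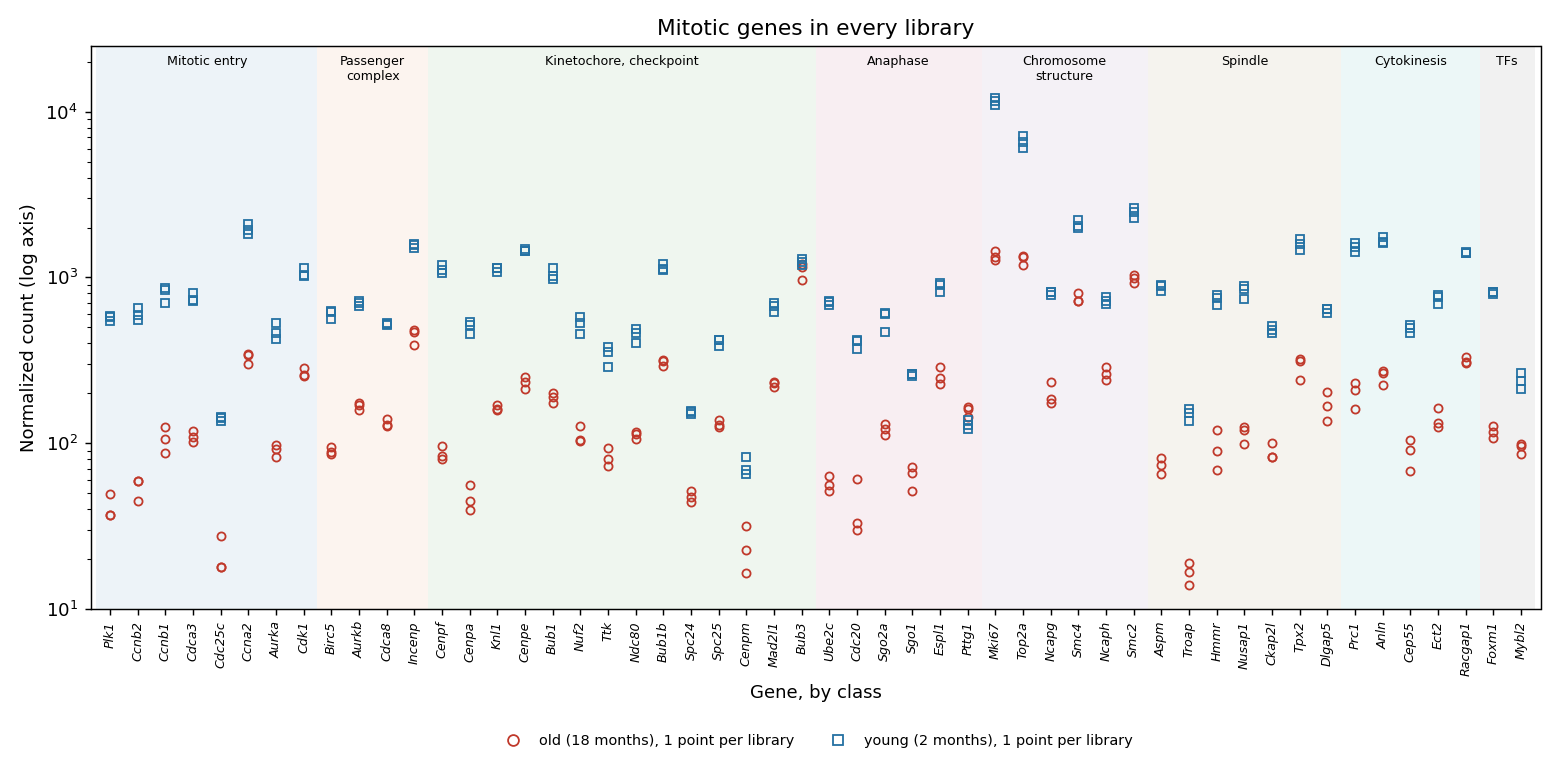
Normalized counts (log axis) of the 52 mitotic genes by class, with 1 open symbol for each of the 3 old and 3 young libraries. In 50 genes the old circles lie below all young squares, whereas those of Bub3 overlap with the squares and those of Pttg1 lie above them.

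The control regions of many of these genes carry the same short elements. Their part in the age difference was not tested. The cell cycle genes homology region, CHR, is a hexamer bound by MuvB, and its core is TTTGAA, with TTCGAA as a rarer variant. It often lies near the start site, a short way downstream of CCAAT boxes, which bind the factor NF-Y. RefSeq promoter windows of 300 bases (250 before and 50 after the start, build GRCm38.p6) were present for 43 of the 52 genes and were searched on both strands. TTCGAA reads the same on both strands. Each motif was counted on its own, also where its match overlapped that of another. The 5 stretches that follow lie upstream of the start, with the elements found in capitals, also where they read on the other strand as TTCAAA or ATTGG. Those of Ube2c and Cdk1 show TTTGAA near the start, at -29 and -15, with CCAAT boxes upstream of it. That of Cdk1 also holds TTTGAA at -71, between its boxes at -80 and -48. In that of Cdc20, TTTGAA at -18 lies between CCAAT boxes at -53 and -8. That of Mki67 shows TTTGAA further out, at -116 and -98. Its CCAAT boxes, from -188 to -141, lie outside the stretch shown. That of Ccnb1, whose window has no TTTGAA, shows its pair of CCAAT boxes.
Cdc20, chr4:118437344-118437463, minus strand: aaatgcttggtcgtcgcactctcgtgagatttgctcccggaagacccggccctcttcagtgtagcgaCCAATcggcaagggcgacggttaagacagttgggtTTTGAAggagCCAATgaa
Ube2c, chr2:164769808-164769927, plus strand: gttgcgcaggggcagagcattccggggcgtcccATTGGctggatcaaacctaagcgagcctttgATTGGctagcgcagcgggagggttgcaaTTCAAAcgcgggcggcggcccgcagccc
Cdk1, chr10:69352913-69353032, minus strand: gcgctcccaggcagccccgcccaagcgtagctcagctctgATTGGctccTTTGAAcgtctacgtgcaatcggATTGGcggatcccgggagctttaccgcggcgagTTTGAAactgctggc
Mki67, chr7:135716380-135716499, minus strand: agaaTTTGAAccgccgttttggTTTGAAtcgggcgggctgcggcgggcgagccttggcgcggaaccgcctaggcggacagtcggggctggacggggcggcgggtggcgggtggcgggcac
Ccnb1, chr13:100786541-100786660, minus strand: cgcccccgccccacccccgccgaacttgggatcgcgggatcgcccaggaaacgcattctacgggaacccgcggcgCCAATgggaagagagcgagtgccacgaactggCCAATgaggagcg

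In further genes with a deep fall the hexamer lay within 50 bases of the start site, and 30 bases around it are given for 6 of them. The stretch from Bub3, which did not pass the test, is set beside them for comparison.
Plk1, chr7:122159453-122159482, plus strand: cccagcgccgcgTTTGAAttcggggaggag
Cenpf, chr1:189688067-189688096, minus strand: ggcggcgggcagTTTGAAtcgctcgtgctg
Aspm, chr1:139454767-139454796, plus strand: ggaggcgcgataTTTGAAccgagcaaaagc
Ccnb2, chr9:70421533-70421562, minus strand: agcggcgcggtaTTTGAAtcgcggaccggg
Cenpa, chr5:30666890-30666919, plus strand: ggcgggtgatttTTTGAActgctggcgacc
Hmmr, chr11:40733412-40733441, minus strand: agttgaggtaaaTTTGAAttcaggcgagct
Bub3, chr7:131560315-131560344, plus strand: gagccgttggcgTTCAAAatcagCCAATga

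TTTGAA occurred in the windows of 29 of the 43 mitotic genes (67.4%), against 20.2% of all 27025 genes with a window. CCAAT occurred in 32 of the 43 (74.4%) against 41.1% of all, and both together in 25 (58.1%) against 8.97%. The variant TTCGAA occurred in 5 of the 43 and in 1.80% of all genes. In the first listed window of each gene, 30 of 37 TTTGAA matches of the mitotic genes (81.1%) began within 50 bases of the start, compared with 24.8% of the matches of all genes. Of 75 CCAAT matches 72 lay upstream of the start.

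The median log2 difference was -2.45 in the 29 genes with TTTGAA and -2.20 in the 14 without it, a difference that was not tested. Of the 10 genes with a window and a log2 difference of -3 or lower, 9 held TTTGAA, and Troap did not. Among the next deepest genes with a window, Prc1 (-2.94), Knl1 (-2.78), Cdca3 (-2.76) and Anln (-2.71) held it. Ccnb1 (-2.91), Nusap1 (-2.84), Birc5 (-2.73) and Cenpe (-2.65) did not. Whether the hexamer goes with the depth of the fall was not tested. Bub3 holds both elements and hardly differed with age, while Birc5, Nuf2, Mad2l1, Ncaph, Nusap1 and Mybl2 hold none of the 3 motifs in this window and fell. Pttg1 holds none either. Counted downstream from the outermost GENCODE start, the RefSeq start lies at 270 bases for Pttg1, 398 for Troap and -169 (upstream) for Mad2l1. The starts of the 2 annotations were within 50 bases of each other for 32 of the 43 genes. Among lists for comparison, TTTGAA occurred in 10 of 11 mitotic kinesin genes and in 3 of 13 genes of replication origins and the helicase. It occurred in only 2 of 5 other cytokinesis genes and 2 of 11 other mitotic entry genes. The median log2 differences of these lists, over all their tested genes, were -2.64 and -1.76. In MuvB, RB, E2F and NF-Y genes, with a median of -0.36, it occurred in 7 of 17.

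**Figure D2:**
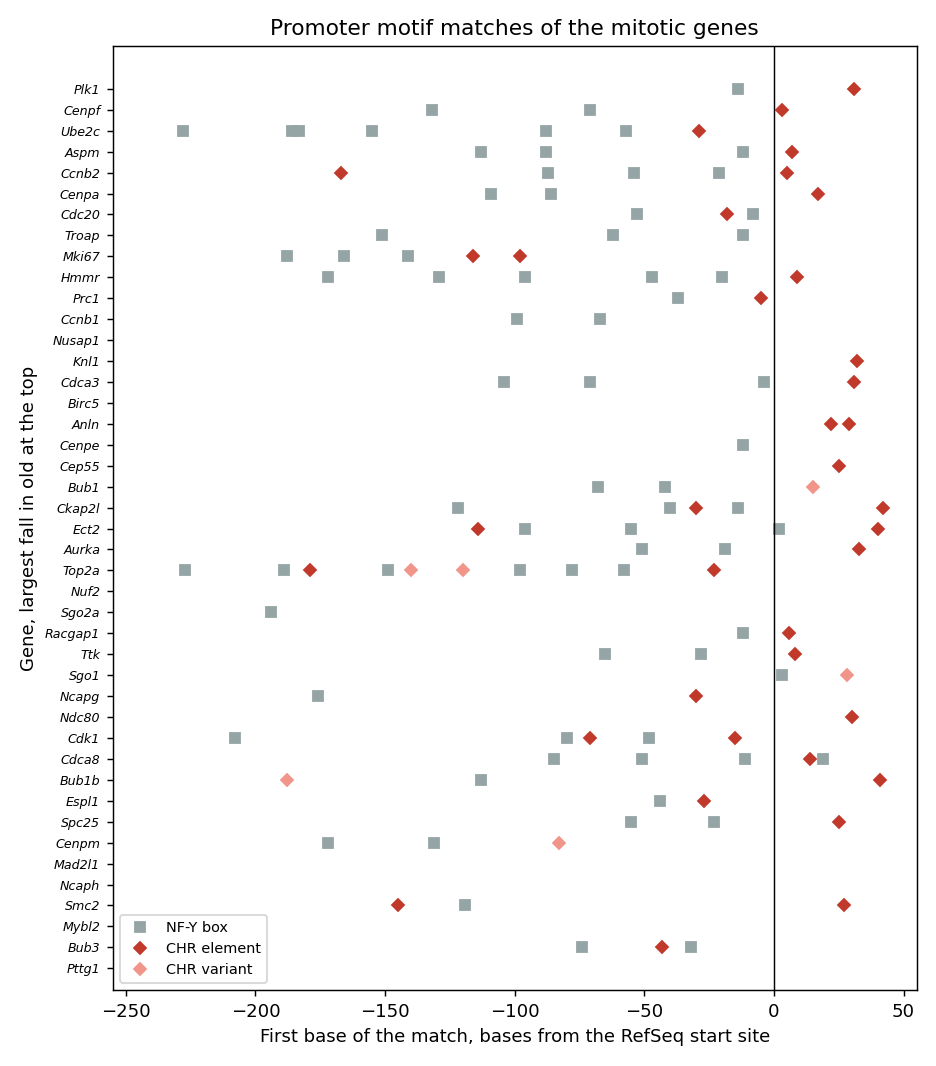
Position of each motif match in the first RefSeq window of 43 mitotic genes, with the first base of the match in bases from the start site on the horizontal axis and the genes ordered by log2 difference. Red diamonds (CHR) crowd around the start, where 30 of 37 lie within 50 bases, and grey squares (NF-Y box) lie mostly upstream of it.

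Mitotic entry genes fell in all 8 cases, by log2 differences of -2.00 to -3.78. Plk1, the polo-like kinase that drives mitotic entry and spindle formation (GRCm38 chromosome 7, 122159439 to 122169873), had the deepest fall of the 52. It had 49.0, 36.8 and 36.8 normalized counts in old replicates 1 to 3 and 586, 542 and 574 in the young ones. The young libraries were thus an order of magnitude above the old ones, with a log2 difference of -3.78 ± 0.13 (SE; limma adjusted p = 1.01e-07). Ccnb2, a B-type cyclin that partners Cdk1, had 58.6, 59.0 and 44.5 in old and 590.5, 550.1 and 652 in young libraries, 11.1-fold higher in young. Ccnb1, the other main mitotic cyclin, had 106, 125 and 87.6 against 700.1, 839 and 869, 7.55-fold higher. In both cyclins the groups lay far apart and old replicate 3 was the lowest library.

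Cdk1, the kinase that both cyclins activate (chromosome 10, 69335146 to 69352938), fell less than its partners. It had 283, 259 and 254 normalized counts in old and 1019, 1034 and 1142 in young libraries, 4.01-fold higher in young, with a log2 difference of -2.00 (95% interval -2.18 to -1.82). The interval of Ccnb2 (-3.75 to -3.15) does not reach it. Ccna2, the cyclin of S phase and early mitosis, was 5.93-fold higher in young. Aurka, the kinase of spindle poles, was 5.21-fold, Cdc25c, a phosphatase that activates Cdk1, 6.66-fold and Cdca3, which promotes the destruction of the Cdk1 inhibitor Wee1, 6.84-fold higher in young. Cdc25c was among the scarcest of the 52, with 17.8 to 27.4 normalized counts in old and 135 to 143 in young libraries.

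All 4 genes of the chromosomal passenger complex fell. This complex corrects faulty attachments at the centromere and later acts at the cleavage site. Aurkb, its kinase, had 169.7, 174 and 157 normalized counts in old and 669.9, 719 and 701 in young libraries, 4.17-fold higher in young (log2 difference -2.05 ± 0.08, SE; limma adjusted p = 1.65e-07). Birc5 (survivin), which anchors it to chromatin, had 94.4, 88.0 and 86.4 against 557, 619 and 627, 6.71-fold higher. The subunit genes therefore fell by unequal amounts, with Cdca8 (borealin) at 3.98-fold and the scaffold Incenp at 3.49-fold. The interval of Birc5 on the log2 scale (-2.94 to -2.53) lay below those of the other 3, whose upper and lower ends spanned -2.23 to -1.61. Levels per exon length in young libraries were 359 normalized counts per kb for Incenp, 237 for Aurkb, 177 for Birc5 and 101 for Cdca8.

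Of the 14 kinetochore and checkpoint genes 13 fell, with log2 differences from -1.54 to -3.68. The deepest was Cenpf, a large protein of the outer kinetochore, with 80.1, 83.8 and 96.5 normalized counts in old and 1109.5, 1188 and 1060.5 in young libraries. Its log2 difference was -3.68 ± 0.10 (SE; limma adjusted p = 3.67e-08). Cenpa, the histone H3 variant that marks the centromere, had 39.4, 55.6 and 44.5 against 540.2, 517 and 454, 10.8-fold higher in young. Cenpe, a kinesin-like motor of the kinetochore that the list holds although other kinesins were left out, was 6.31-fold higher, and the scaffold Knl1 6.90-fold. Cenpm, of the inner centromere, was scarce and variable, with 22.7, 31.6 and 16.5 against 65.4, 68.4 and 82.8 and the largest adjusted p of the 50 (limma, 0.000927).

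The Ndc80 complex, which grips the microtubule, had unequal log2 differences among its subunits. They were -2.00 and -2.21 for its outer pair, Ndc80 and Nuf2, and -1.68 and -1.64 for its inner pair, Spc24 and Spc25. The intervals of Nuf2 (-2.49 to -1.94) and Spc25 (-1.84 to -1.43) did not overlap, while those of Ndc80 (-2.23 to -1.77) and Spc24 (-1.96 to -1.39) did. The difference between subunits was not tested further. Per exon length, Spc25 was the most abundant of the 4 at both ages, with 128 normalized counts per kb in young and 41.0 in old libraries, against 59.8 to 82.1 and 17.2 to 18.5 for the others.

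Checkpoint genes fell as well, except for Bub3. The checkpoint kinases Bub1 and Ttk (Mps1) were 5.57-fold and 4.16-fold higher in young, and Bub1b (BubR1) and Mad2l1 (Mad2), which hold back the anaphase-promoting complex, 3.74-fold and 2.91-fold. Bub3, a small beta-propeller protein that carries Bub1 and Bub1b to the kinetochore (chromosome 7, 131560222 to 131571895), had 1153, 1206 and 970.3 normalized counts in old and 1188, 1246 and 1291 in young libraries. The groups overlapped, and the log2 difference of -0.17 (95% interval -0.37 to 0.03) did not pass (limma adjusted p = 0.176). In old libraries Bub3 was, at 158 normalized counts per kb of exon, second only to Smc2 (179) among the 52, whereas in young ones Bub1 and Bub1b lay above its 177 with 241 and 269. Bub3 shares part of its position with Fgfr2 on the opposite strand.

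Of the 6 genes of sister separation and anaphase, 5 fell. Ube2c, the ubiquitin-conjugating enzyme of the anaphase-promoting complex (chromosome 2, 164769898 to 164778822), had 51.4, 63.3 and 55.9 normalized counts in old and 725, 679 and 712 in young libraries, 12.4-fold higher in young. Cdc20, the activator of that complex and target of the checkpoint, had 60.9, 29.9 and 33.0 against 412, 369 and 417, 9.67-fold higher. Old replicate 1 lay well above the other old libraries for Cdc20, which had the highest coefficient of variation of the 52 among old libraries (41.4%), and its groups still did not overlap. Separase (Espl1), the protease that opens cohesin, was 3.49-fold higher in young, and the shugoshins Sgo1 and Sgo2a, which protect centromeric cohesin, were 4.12-fold and 4.61-fold higher.

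Pttg1, which encodes securin, the inhibitor of separase (chromosome 11, 43420250 to 43426251), was the exception in this class. It had 161, 164 and 144 normalized counts in old and 122, 129 and 139 in young libraries. Every old library lay above every young one, which 24.0% of all tested genes showed in this direction, and the lowest old and highest young values were close. The log2 difference was 0.27 ± 0.11 (SE) and did not pass (limma adjusted p = 0.0879). It passed in 5 of 19 alternatives, among them without old replicate 3 (limma adjusted p = 0.0391), and the adjusted p ran from 0.00476 to 0.262. The 95% interval of its log2 difference was 0.02 to 0.51, against -2.02 to -1.58 for its target Espl1.

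**Figure D3:**
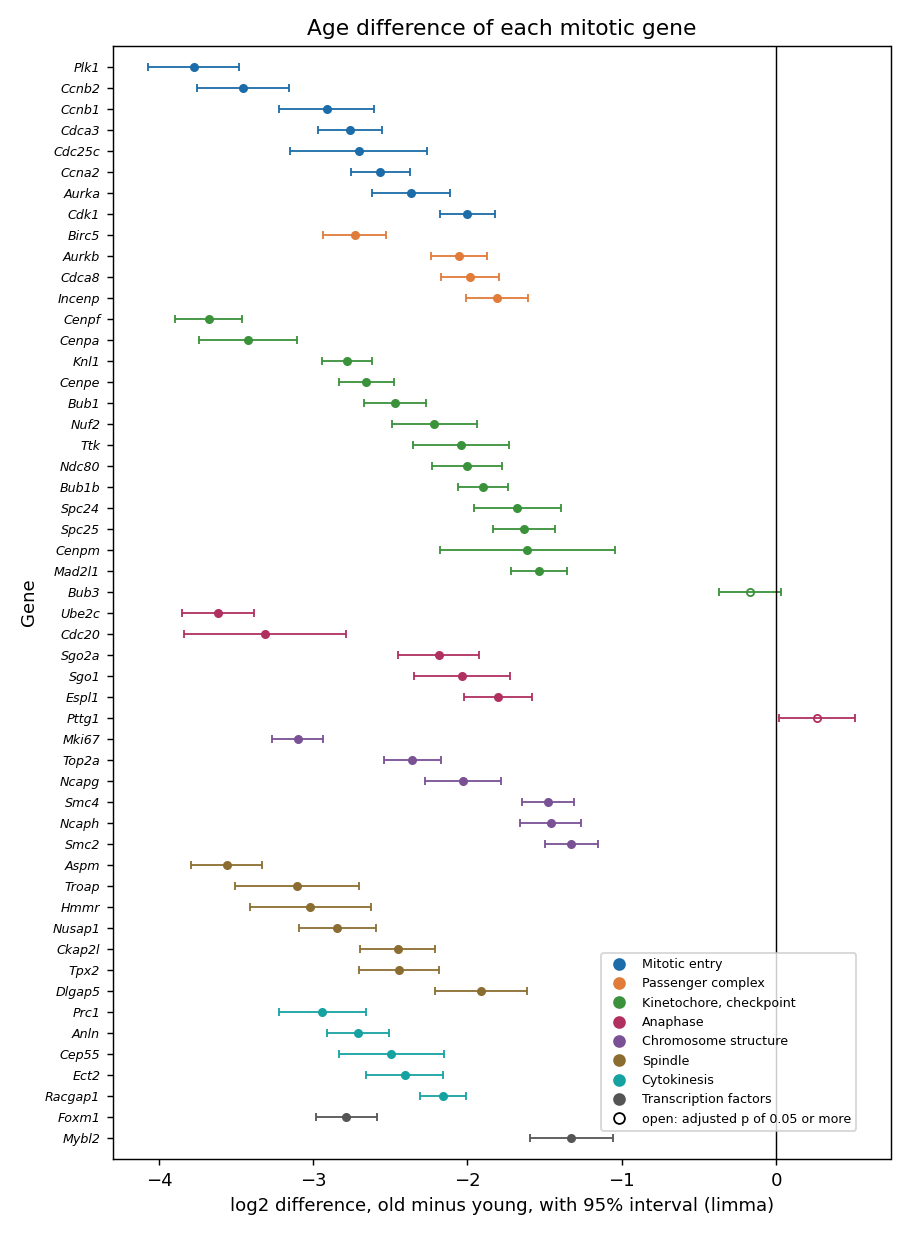
The log2 difference, old minus young, of each mitotic gene with its 95% interval from limma, coloured by class, with open circles where the adjusted p was 0.05 or more. Bub3 and Pttg1 are the open circles near 0, and all other intervals end below -1.

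The 6 genes of chromosome structure fell, the condensin subunits among them less deeply than most other members. Smc2 and Smc4, the ATPases shared by both condensins, had 926 to 1030.1 against 2286 to 2642 and 721 to 805 against 1994 to 2232 normalized counts. They were 2.51-fold and 2.79-fold higher in young. Ncaph and Ncapg, which belong to condensin I, the form that reaches the chromosomes after the nuclear envelope opens, were 2.76-fold and 4.06-fold higher. The interval of Ncapg (-2.28 to -1.78) lay below those of Smc2 (-1.50 to -1.16), Smc4 (-1.65 to -1.31) and Ncaph (-1.66 to -1.27).

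Mki67 and Top2a were the most abundant of the 52 per exon length in young libraries, at 1153 and 732 normalized counts per kb. Mki67, which coats mitotic chromosomes and keeps them apart, had 1326, 1279 and 1453 normalized counts in old and 11069.8, 11565 and 12169 in young libraries. Top2a, the topoisomerase that untangles sister chromatids (chromosome 11, 98992943 to 99024189), had 1339.6, 1327 and 1194 against 6059.5, 6592 and 7145, 5.13-fold higher in young (log2 difference -2.36 ± 0.08, SE; limma adjusted p = 1.01e-07). In old libraries both were at about the level of Smc4 per kb (134, 143 and 144), although in young ones Smc4 stood at 401.

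**Figure D4:**
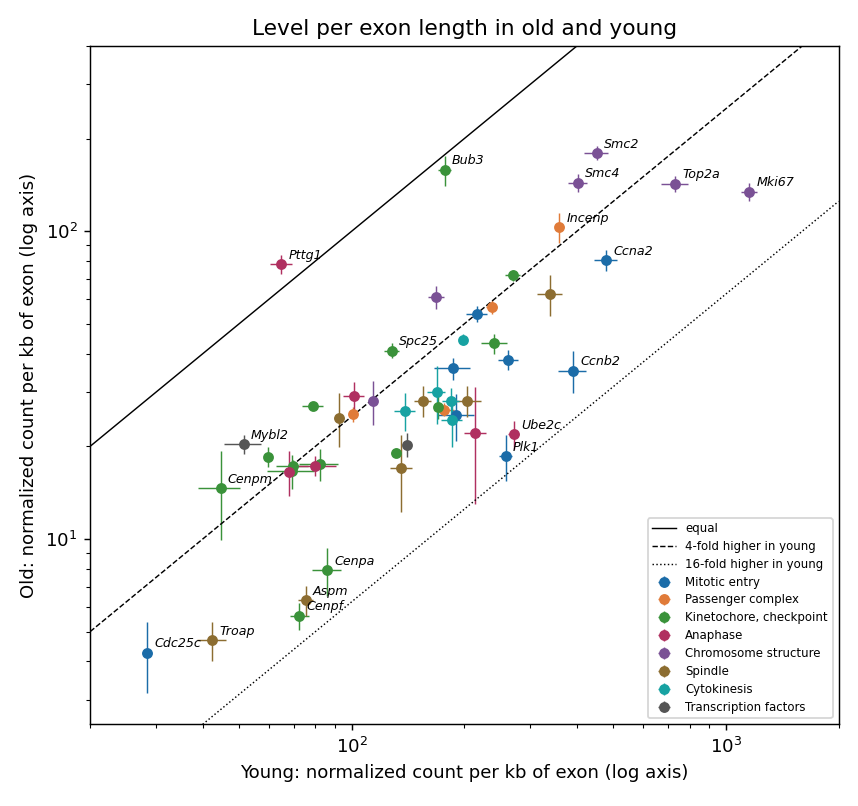
Mean normalized count per kb of exon in the 3 old libraries against the 3 young ones for the 52 mitotic genes (log axes, bars are the SD, colours are classes), with lines for equal levels and for 4-fold and 16-fold higher levels in young. Bub3 and Pttg1 lie on either side of the line of equality, and Plk1, Cenpf and Ube2c come nearest to the 16-fold line.

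All 7 spindle genes fell. Aspm, which focuses spindle poles and whose human counterpart is a microcephaly gene, had 74.1, 65.0 and 81.3 normalized counts in old and 828, 889 and 905 in young libraries, 11.9-fold higher in young (log2 difference -3.56 ± 0.10, SE; limma adjusted p = 5.4e-08). Troap, a protein needed for spindle pole integrity, was 9.04-fold higher in young and the lowest member in old, with 16.7, 18.8 and 14.0. Hmmr, a spindle assembly factor and hyaluronan receptor, had 119.5, 88.9 and 68.6 against 682, 751 and 781, so its old libraries were spread widely but stayed far below the young. The microtubule bundler Nusap1 was 7.22-fold, the centrosome protein Ckap2l 5.50-fold, the Aurka activator Tpx2 5.42-fold and the spindle stabiliser Dlgap5 3.73-fold higher in young. Nusap1 overlaps Oip5 on the opposite strand.

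The 5 cytokinesis genes fell within a narrow band, from -2.16 to -2.94 on the log2 scale. Prc1, which bundles the microtubules of the central spindle, had 229, 210.3 and 160.0 normalized counts in old and 1428, 1527 and 1621 in young libraries, 7.63-fold higher in young. Anln, the anillin of the contractile ring, was 6.54-fold and Cep55, which recruits the machinery of final separation, 5.60-fold higher. Racgap1 and Ect2 form with the kinesin Kif23 the module that switches on RhoA at the cleavage site. Racgap1 was 4.48-fold higher in young and very even, with 1399, 1408 and 1419 in the young libraries, and Ect2 was 5.30-fold higher.

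Both transcription factors fell, Foxm1 more than Mybl2. Foxm1, which switches on late cell cycle genes (chromosome 6, 128362967 to 128376146), had 116, 107 and 127 normalized counts in old and 814, 791 and 819.7 in young libraries, 6.93-fold higher in young (log2 difference -2.79 ± 0.09, SE; limma adjusted p = 7.15e-08). Mybl2, the gene of B-Myb, which joins MuvB before FoxM1 does, had 99.2, 86.3 and 96.5 against 266, 238 and 211, 2.53-fold higher. Their intervals (-2.98 to -2.59 and -1.60 to -1.06) did not overlap. Per exon length they were equal in old libraries, at 20.3 normalized counts per kb each, and in young ones Foxm1 stood at 140.4 and Mybl2 at 51.4.

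Libraries of the same age were close to each other in these genes. The median coefficient of variation over the 52 genes was 10.1% in old and 6.26% in young libraries. Old replicate 3 had the lowest old value in 26 of the 52 genes and old replicate 1 the highest in 25. Young replicate 3 had the highest young value in 36 and young replicate 1 the lowest in 33. With both libraries numbered 3 left out, all 50 genes were still called lower. For 19 of the 52, reads of an overlapping gene on the opposite strand cannot be told apart, since use of strand in counting is not given in the sources used here. Besides those named, these include Plk1, Cenpf, Ccna2 (with Exosc9), Cdc20 (with Elovl1), Ube2c (with Tnnc2) and Mki67.

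Most other genes of the same machinery fell too. They were listed by function and are described by counts and medians, beside the 17.6% of all tested genes called lower. Of 12 mitotic kinesins 12 fell, with a median log2 difference of -2.57, among them Kif14 (-3.29), Kif2c (-3.10), Kif18b (-2.79) and Kif11 (-2.66). Of 8 other cytokinesis genes 7 fell (median -2.64), including Depdc1a (-3.42), Pimreg (-3.40), the citron kinase Cit (-2.65) and Cdca2 (-2.37). Of 15 other mitotic entry genes 13 fell (median -1.76), including the kinases Nek2 (-2.64) and Pbk (-1.96), the cyclin Ccnf (-2.22) and the phosphatase Cdc25b (-2.13).

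All 16 genes of the inner centromere and its loading factors fell, with a median of -1.21, among them Cenpn (-1.91), Cenpi (-1.76) and the Cenpa chaperone Hjurp (-1.05). Of 14 other outer kinetochore and checkpoint genes 13 fell (median -1.31), including Ska3 (-2.04), Nsl1 (-1.78), Zwilch (-1.65) and Kntc1 (-1.60). The 4 other condensin subunits fell as well. Of these, Ncapd2 of condensin I fell by 2.28 on the log2 scale. Of the 3 subunits of condensin II, Ncapg2 fell by 1.43, Ncapd3 by 0.77 and Ncaph2 by 0.50. Of 16 other spindle genes 15 fell (median -0.82), among them Spag5 (-2.88), Stil (-2.02), Tacc3 (-1.86) and Plk4 (-1.37).

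Complexes that also act outside mitosis had medians nearer 0. Of 13 cohesin genes 9 fell (median -0.31). Among them were Esco2 (-2.18) and sororin Cdca5 (-1.74), which set up sister cohesion, and the subunits Rad21 (-0.91) and Smc1a (-0.48). Esco1, chosen for mention because of its value, was the 1 cohesin gene called higher (0.33), and the call was lost without old replicate 2 or young replicate 2. Of 15 genes of the anaphase-promoting complex and its partners 10 fell (median -0.40), among them the inhibitor Fbxo5 (-1.55), the activator Fzr1 (-1.06), Ube2s (-0.95) and the core subunit Anapc5 (-0.60).

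Most of the regulators upstream of these genes and most replication genes fell, with medians likewise nearer 0 than that of the 52 mitotic genes. Of 22 MuvB, RB, E2F and NF-Y genes 14 fell and 1, E2f5 (0.46, likewise chosen because of its value), was called higher, with a median of -0.36. E2f5 lost its call without old replicate 1 or 2, without young replicate 2 or 3, without a filter and in DESeq2. The deepest among the named genes were the repressors E2f7 (-1.80) and E2f8 (-1.38), followed by Mybl1 (-1.20) and E2f2 (-1.14). Of 17 genes of replication origins and the helicase 12 fell, with a median of -0.36, among them Mcm10 (-1.16), Cdc45 (-0.84), Gins3 (-0.75) and Mcm7 (-0.55). The difference between the medians of these lists was not tested.

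**Figure D5:**
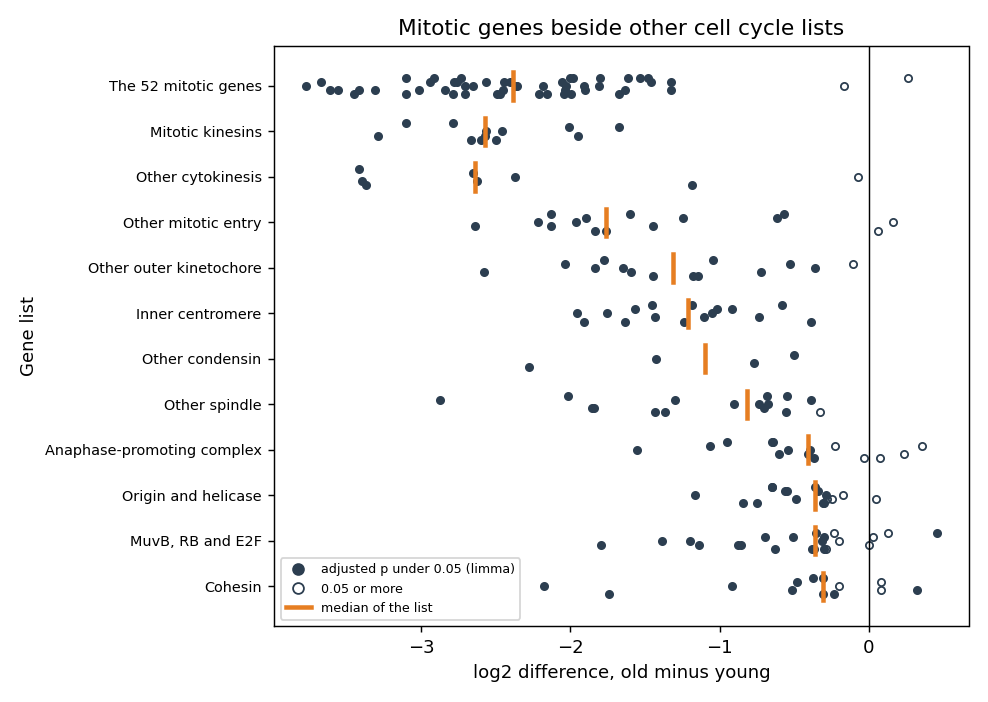
The log2 difference, old minus young, of every tested gene in the 52 mitotic genes and 11 other cell cycle lists (filled where the limma adjusted p was under 0.05), with the median of each list as an orange bar. Medians run from -2.64 in other cytokinesis genes and -2.39 in the 52 mitotic genes to -0.31 in cohesin.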

How the data were processed

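Messenger RNA had been prepared with the TruSeq protocol, per the labels. The deposited table holds normalized counts, a kind of signal: reads per gene that the authors scaled with 1 factor for each library. DESeq2 and the build mm10 appear, without versions, in the submitters' processing notes. For the aligner, counter and annotation release, nothing was given in the sources used here. Values were whole multiples of 1 step per library (100% within 0.01 reads), so reads were recovered by division. Symbols matched 19917 of 19973 identifiers. Positions and exon lengths (union over transcripts) are from GENCODE M21 on GRCm38, promoters from RefSeq on GRCm38.p6.

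The median chi-square statistic of each pair of libraries was at least 1.49 times that of sampling noise, and each library was treated as 1 sample. Such an excess cannot show that libraries came from different mice. The ratio was 1.49 for old replicates 1 and 2 and 1.76 for young replicates 1 and 2. Same-age pairs with a replicate 3 had ratios of 3.50 to 5.69. The test was limma 3.58.1 (R 4.3.3) with a trend on log2(normalized count + 1), which understates changes of low genes, for genes with a mean of at least 10. Adjusted p-values are Benjamini-Hochberg over all 11795 tested genes with a threshold of 0.05, and folds are ratios of means. It was checked on simulated counts. Whole reads went into edgeR 4.0.16 and DESeq2 1.42.0 as alternatives. The 52 genes and all lists were chosen with earlier results of these data known. Named are all 52 genes, the 4 smallest adjusted p-values among passing genes of each other list, and the 2 most abundant genes of each marker list. A gene that this rule names is not reported here.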

Additional observations from a re-analysis of the deposited data

How the results depend on the processing

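Over 19 alternatives (a pseudocount of 0.5 or 5, a filter at a mean of 50 or none, TMM scaling, quantile normalization, median centring, limma without trend, array quality weights, a replicate block, edgeR, DESeq2, each library left out, both libraries numbered 3 left out) 49 to 50 members were called lower, 49 where Cenpm fell below the filter at 50. No member changed direction, and the largest adjusted p of the 50 was 0.00838. Members called higher numbered 1 (Pttg1) under quantile normalization, median centring, array quality weights and without both libraries numbered 3, and 0 to 1 with 1 library left out (1 without old replicate 3). Over all genes 4183 passed, 7634 with array quality weights, 6960 without both libraries numbered 3, 2940 to 5660 with 1 library left out, and 2643 with the replicate block. Same-numbered libraries did not deviate together (r of -0.38, -0.36 and -0.68 across genes) and none correlated best with its own number, so no pairing by number was seen. Deviations were taken from the mean of the 3 libraries of an age, which ties the r values to each other, so they cannot settle whether libraries were paired. With the block 50 members were called lower. Cohesin genes called lower numbered 5 with the block. Depth limits the scarcest members, such as Cenpm and Troap, most.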
